A study of Drosophila melanogaster with 8 samples.

Results

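The genes described here make and resolve the programmed DNA breaks of meiosis in Drosophila melanogaster females. The set holds 10 genes, mei-W68, mei-P22, vilya, narya, nenya, mei-217, mei-218, rec, mei-9 and hdm, chosen by name for their role and matched by symbol and FlyBase ID. Earlier results of these data were known when the genes were chosen. They are 10 of 14094 genes with an abundance in each library, and all 10 were among the 8898 genes tested. RNA was measured by polyA RNA sequencing in whole ovaries that were rich in GSC-like cells, that is, germ cells resembling the stem cells of the germline. Of the 8 libraries, 4 came from females with Stonewall (Stwl) overexpression (StwlOE, labelled StwlEY), and 4 from Control females without it. All were 4 to 5 days old, and about 35 ovaries were pooled for each library. What StwlEY stands for, the driver behind the overexpression, the genetic tool that enriched the GSC-like cells in both groups, and the strain of each group are not given in the labels. Strain and Stwl level therefore cannot be told apart here. Nothing states that the replicates are separate crosses or cultures, and a p-value then covers only the spread among these libraries, which may be technical.

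Meiotic recombination starts in the germarium, where germline cysts that have left the stem cell state enter meiosis. Mei-W68, the fly relative of Spo11, cuts the DNA together with its partner Mei-P22. The RING-domain proteins Vilya, Narya and Nenya are needed for normal break formation and crossing over, and Vilya binds Mei-P22. Mei-217, Mei-218 and Rec, relatives of the replicative MCM helicase subunits, form the mei-MCM complex, which favours crossovers over other repair by opposing the Blm helicase. Mei-9, an XPF-type nuclease, works with Ercc1, Mus312 and Hdm to resolve intermediates into crossovers. Stwl is a DNA-binding protein with a MADF and a BESS domain that the female germline needs to keep its stem cells.

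Germline markers were present in every library, and RNA of other ovarian cell types was present too. The summed abundance of 12 germline marker genes was 1258 to 1821 TPM in StwlOE libraries and 1722 to 1881 TPM in Control libraries. TPM is a relative abundance per transcript length, scaled to a sum of 1000000 in each library, so it keeps no depth and depth is unknown here. The overexpressed gene stwl was at 45.5 to 67.8 TPM in StwlOE libraries and at 21.9 to 25.1 TPM in Control libraries (log2 fold change 1.25, adjusted p = 0.000323 in limma). Summed muscle sheath markers were at 3996 to 4907 TPM in StwlOE and 2396 to 3250 TPM in Control, hemocyte markers at 171 to 244 TPM in StwlOE and 95.7 to 138 TPM in Control, and chorion genes at 1518 to 7031 TPM in StwlOE and 112 to 802 TPM in Control. None of the 12 germline, 12 muscle, 8 hemocyte or 9 chorion genes was listed at 0 in all libraries. Their part in the results below was not tested, except where values were rescaled to the germline markers.

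With Stwl overexpression, hdm and mei-W68 fell and the other 8 genes did not pass the test. The test was a limma fit of log2(TPM + 1) over all 8898 genes with Benjamini-Hochberg adjustment and a threshold of 0.05. It called 2.18% of all tested genes lower and 6.2% higher, so 2 lower calls among 10 genes (20%) stand beside that 2.18%, and 0 of the 10 were called higher. The counts behind these shares were 194 lower and 552 higher genes. They became 585 lower (6.58%) and 820 higher (9.22%) with median-of-ratios scaling, and 715 lower (8.04%) and 663 higher (7.45%) with quantile normalization. Of the 10 genes, 9 had a log2 fold change below 0, against 46% of all tested genes. When the libraries were scaled to germline markers, 5 of the 10 did. Under that scaling 6.81% of all tested genes lay below rec (-0.04) and 8.76% below mei-218 (0.02), so the share below 0 was between these. Without scaling the median of the 10 genes was -0.25, against 0.01 for all tested genes. With mei-217 and mei-218, which share exons, summed to 1 feature, 8 of 9 were below 0 and 2 were called lower. The values of StwlOE and Control did not overlap for 3 of the 10, each lower in StwlOE, against 5.64% of all tested genes. A further 10.3% of all tested genes were higher in StwlOE with no overlap, and 0 of the 10 were. Because the genes were chosen with earlier results of these data known, these shares describe the set and test nothing.

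**Figure D1:**
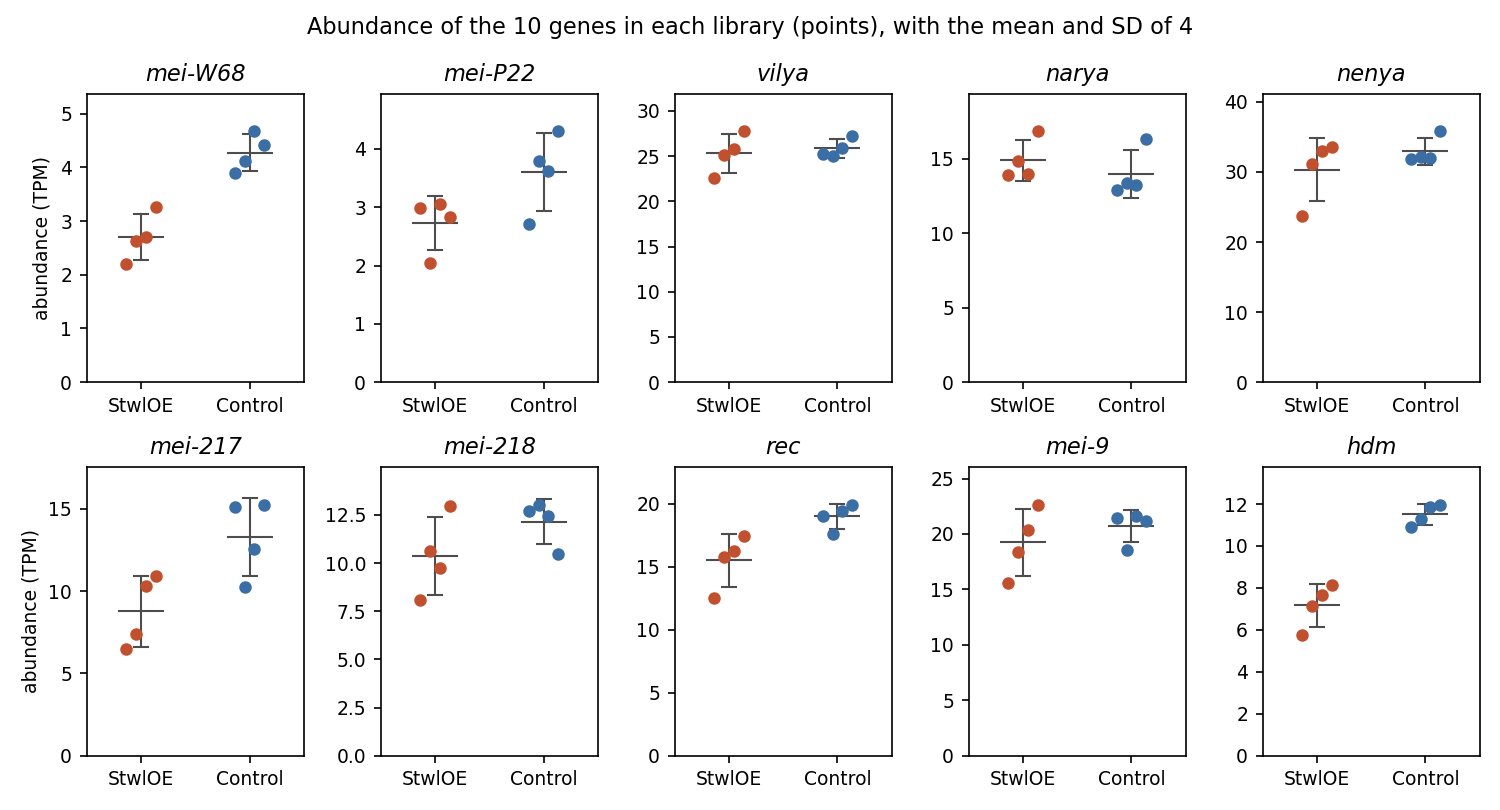
Abundance in TPM (vertical axes, each starting at 0) of each gene in the 4 StwlOE libraries (left, orange) and the 4 Control libraries (right, blue), with the mean and SD. For mei-W68, rec and hdm every StwlOE library lies below every Control library, and for vilya, narya and nenya the groups overlap.

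The abundance of the genes spanned a wide range in both groups. In StwlOE libraries nenya was the most abundant at 30.3 ± 4.55 TPM and mei-W68 the least at 2.70 ± 0.429 TPM (SD, n = 4). In Control libraries nenya was again at the top with 32.9 ± 1.94 TPM, and mei-P22 at the bottom with 3.61 ± 0.664 TPM (SD, n = 4). The order in StwlOE libraries was nenya, vilya, mei-9, rec, narya, mei-218, mei-217, hdm, mei-P22 and mei-W68. In that order only narya and mei-218, and hdm and mei-P22, were neighbours whose ranges over the 4 libraries did not overlap. In Control libraries the order was nenya, vilya, mei-9, rec, narya, mei-217, mei-218, hdm, mei-W68 and mei-P22. There the ranges of nenya and vilya, vilya and mei-9, rec and narya, and hdm and mei-W68 were apart, and the other neighbours overlapped. The enzyme gene mei-W68 and its partner mei-P22 thus stood lowest in both groups. In Control libraries mei-W68 and mei-P22 were more abundant than only 14.9% and 13.4% of the tested genes, while nenya stood at the 56.1 percentile.

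Among the break-forming genes, mei-W68 fell and mei-P22 did not pass. The gene mei-W68 (FBgn0002716, chromosome 2R, 19456170 to 19459523, plus strand) was at 2.21, 2.63, 2.71 and 3.25 TPM in StwlOE replicates 1 to 4, against 3.90, 4.11, 4.68 and 4.41 TPM in Control replicates 1 to 4. Each StwlOE library was below each Control library. The mean in StwlOE was 36.8% below that in Control. The fold change on the log2(TPM + 1) scale was -0.52 ± 0.122 (standard error), with a 95% confidence interval of -0.79 to -0.24 (limma, adjusted p = 0.0310). On that scale the change of a gene this low is understated, and with a pseudocount of 0.1 the value was -0.65. The authors' deposited table lists mei-W68 at -0.70 ± 0.129 (standard error), adjusted p = 1.51e-06. The limma call ended when any single library other than StwlOE 1 or StwlOE 4 was left out, with adjusted p-values of 0.0607 to 0.0948, although the log2 fold change stayed between -0.58 and -0.45.

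Part of mei-W68 is shared with another gene. Its 2300 exonic bases include 806 that also belong to exons of par-1, a kinase gene of cell polarity transcribed from the same strand. The gene par-1 was at 86.1 ± 15.5 TPM in StwlOE and 87.0 ± 9.18 TPM in Control (SD, n = 4 each), with a log2 fold change of -0.03 (adjusted p = 0.940 in limma). Reads from the shared bases cannot be told apart by gene, so the level of mei-W68 depends on how they were assigned.

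The partner gene mei-P22 (FBgn0016036, chromosome 3L, 7244388 to 7245383, plus strand), a single-exon gene, was at 2.99, 2.05, 3.05 and 2.83 TPM in StwlOE replicates 1 to 4. It was at 2.71, 3.79, 3.61 and 4.31 TPM in Control replicates 1 to 4. Control 1 was as low as the StwlOE libraries and the groups overlapped. The log2 fold change was -0.30 with a confidence interval of -0.64 to 0.04 (adjusted p = 0.301 in limma). The authors' deposited table gave mei-P22 a mean normalized count of 60.5, the lowest of the 10 genes, and an adjusted p of 0.229. Whether mei-W68 changed by more than mei-P22 could not be shown. The difference of their log2(TPM + 1) values within a library averaged -0.01 ± 0.259 in StwlOE and 0.20 ± 0.173 in Control (SD, n = 4 each, 2-sided exact permutation p = 0.257, adjusted p = 0.321 over 5 pairs of genes).

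The RING-domain genes vilya, narya and nenya did not pass the test, and vilya and narya were the 2 genes closest to no change. The gene vilya (FBgn0283545, chromosome X, 2726678 to 2727568, plus strand), whose product binds Mei-P22, averaged 25.3 ± 2.13 TPM in StwlOE and 25.9 ± 1.01 TPM in Control (SD, n = 4 each). It ranged from 22.6 to 27.8 TPM in StwlOE and from 25.01 to 27.3 TPM in Control, and its log2 fold change was -0.03 with a confidence interval of -0.20 to 0.14. The gene narya (FBgn0031018, chromosome X, 19475063 to 19476055, plus strand) averaged 14.88 ± 1.38 TPM in StwlOE and 13.95 ± 1.59 TPM in Control (SD, n = 4 each), with a log2 fold change of 0.09 and an interval of -0.13 to 0.31. Its ranges of 13.9 to 16.8 TPM in StwlOE and 12.9 to 16.3 TPM in Control overlapped, and it was the 1 gene of the 10 with a log2 fold change above 0. Its paralogue nenya (FBgn0051053, chromosome 3R, 27927357 to 27928174, minus strand) was at 23.7, 31.2, 33.0 and 33.5 TPM in StwlOE replicates 1 to 4, against 31.8, 32.1, 31.9 and 35.8 TPM in Control replicates 1 to 4. StwlOE 1 stood apart as low, and the other 3 StwlOE libraries lay within or just below the Control range. The log2 fold change of nenya was -0.12 with an interval of -0.37 to 0.12, and -0.01 without StwlOE 1. The intervals of all 3 genes leave out a fall as large as that of hdm (-0.62). Both narya and nenya lie within the bounds of a gene on the opposite strand, CG32533 and mino, but share no exonic base with it. The level of mino was 83.6 ± 15.3 TPM in StwlOE and 84.3 ± 7.29 TPM in Control (SD, n = 4 each).

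The mei-MCM genes had log2 fold changes of -0.56 for mei-217, -0.22 for mei-218 and -0.28 for rec, and none of the 3 passed in limma. The gene rec (FBgn0003227, chromosome 3R, 15823019 to 15832632, minus strand) was at 12.5, 15.8, 16.2 and 17.4 TPM in StwlOE replicates 1 to 4. It was at 19.0, 17.6, 19.4 and 19.9 TPM in Control replicates 1 to 4. The groups did not overlap, although StwlOE 4 at 17.4 TPM and Control 2 at 17.6 TPM nearly met (2-sided exact permutation p = 0.0286, the smallest that 4 against 4 libraries allow). Its adjusted p was 0.135 in limma, and its standard error was 0.102. The call of rec depended on the setting: the authors' deposited table gave a log2 fold change of -0.33 with an adjusted p of 7.76e-06, and limma passed it under 4 of the other settings. These were quantile normalization (adjusted p = 0.00476), median-of-ratios scaling (0.00741), library weights (0.00764) and leaving out the 20 most abundant genes (0.0483). With weights limma called 9.04% of all tested genes lower and 25.8% higher, and without the 20 most abundant genes 4.17% lower and 7.22% higher. Of the 4131 exonic bases of rec, 1100 lie across from exons of alpha-Man-IIb on the opposite strand, at 6.53 ± 1.27 TPM in StwlOE and 7.28 ± 0.826 TPM in Control (SD, n = 4 each). The labels and files used here do not state whether reads were counted by strand.

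The genes mei-217 and mei-218 are read from shared transcripts, so their separate values are uncertain. On chromosome X, minus strand, mei-217 (FBgn0028581, 17136578 to 17142990) lies within mei-218 (FBgn0002709, 17135985 to 17142990). All 5005 exonic bases of mei-217 are also exonic in mei-218, where they make up 79.3%, and 1 transcript model of mei-218 is identical to that of mei-217. StwlOE replicates 1 to 4 had 6.45, 7.38, 10.3 and 10.9 TPM of mei-217, and Control replicates 1 to 4 had 15.1, 10.2, 12.6 and 15.2 TPM. For mei-218 the values were 8.10, 10.6, 9.75 and 12.9 TPM in StwlOE and 12.7, 13.03, 12.4 and 10.5 TPM in Control. Both genes overlapped between the groups, mei-217 through Control 2 and mei-218 through StwlOE 4 and Control 4.

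Summed over both genes, StwlOE replicates 1 to 4 were at 14.6, 18.0, 20.1 and 23.8 TPM, against 27.8, 23.3, 24.996 and 25.7 TPM in Control replicates 1 to 4. The sum, a feature added after the values were seen, differed by -0.41 ± 0.133 on the log2 scale (standard error) and did not pass (adjusted p = 0.101 in limma). StwlOE 4 alone reached into the Control range. The share of the sum assigned to mei-217 was 45.6% ± 4.35 in StwlOE and 52.0% ± 6.50 in Control (SD, n = 4 each). The within-library difference of mei-218 and mei-217 had an exact permutation p of 0.200 (adjusted p = 0.321 over 5 pairs), and that of rec and mei-218 a p of 0.600. The authors' deposited table marks mei-217 as Down, with a log2 fold change of -0.65 and an adjusted p of 0.000162, and mei-218 as not changed, with -0.28 and 0.0868.

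Of the crossover endonuclease genes, hdm fell and mei-9 did not pass. The gene hdm (FBgn0029977, chromosome X, 7918517 to 7920131, minus strand) was at 5.76, 7.14, 7.64 and 8.13 TPM in StwlOE replicates 1 to 4, against 10.9, 11.3, 11.9 and 11.97 TPM in Control replicates 1 to 4. The highest StwlOE library was below the lowest Control library. The mean in StwlOE was 37.7% below that in Control. On the log2(TPM + 1) scale the fold change was -0.62 ± 0.106 (standard error), with an interval of -0.86 to -0.38 (limma, adjusted p = 0.00722). That scale understates the change, and with a pseudocount of 0.1 the value was -0.69. The authors' deposited table lists hdm at -0.72 ± 0.0989 (standard error), adjusted p = 2.25e-11. In limma, hdm passed with each of the 8 libraries left out in turn, with adjusted p-values of 0.00340 to 0.0310 and log2 fold changes of -0.68 to -0.54. Its exons overlap no other annotated gene. Its neighbours snz, 73 bases away, and Ykt6, 278 bases away, both on the opposite strand, had log2 fold changes of 0.08 and -0.03 (adjusted p = 0.772 and 0.867 in limma).

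The nuclease gene mei-9 (FBgn0002707, chromosome X, 4314230 to 4318801, minus strand), also used in excision repair outside meiosis, was at 15.6, 18.4, 20.3 and 22.6 TPM in StwlOE replicates 1 to 4. In Control replicates 1 to 4 it was at 21.4, 18.6, 21.7 and 21.2 TPM. StwlOE 4 was the highest library of all 8 and StwlOE 1 the lowest, so the groups overlapped, and the log2 fold change was -0.11 with an interval of -0.36 to 0.14 (adjusted p = 0.660 in limma). Within a library, log2(TPM + 1) of hdm lay below that of mei-9 by more in StwlOE than in Control. The difference hdm minus mei-9 was -1.31 ± 0.0490 in StwlOE and -0.79 ± 0.102 in Control (SD, n = 4 each), and the ranges of -1.37 to -1.25 and -0.91 to -0.67 were apart. Its 2-sided exact permutation p was 0.0286, the smallest possible, and 0.143 when adjusted over the 5 pairs. With 4 against 4 libraries a single pair at the smallest p can reach no lower adjusted value, so the adjustment could not be passed by 1 pair alone. It lay between -0.55 and -0.47 as a difference between the groups with any 1 library left out, against -0.51 with all 8. Their partner Ercc1, named for its role with its values already seen, was at 28.8 ± 5.23 TPM in StwlOE and 35.9 ± 1.87 TPM in Control (SD, n = 4 each), with a log2 fold change of -0.32 that did not pass (adjusted p = 0.1498 in limma). Of the 3606 exonic bases of mei-9, 382 are shared with a long noncoding RNA gene of the same strand that was not analysed here, and the gene of the scaffold Mus312 was not analysed here either.

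The StwlOE libraries differed among themselves in nearly all of the 10 genes. StwlOE 1 had the lowest value of its group for 9 genes and the lowest of all 8 libraries for 8, and StwlOE 4 the highest of its group for 9. The median deviation of the 10 genes from the Control mean on the log2(TPM + 1) scale was -0.49 in StwlOE 1, -0.21 in StwlOE 2, -0.19 in StwlOE 3 and -0.04 in StwlOE 4. Over all tested genes the same medians were -0.12, -0.02, 0.08 and 0.13. The genes hdm, mei-W68, mei-217, rec and mei-P22 lay below the Control mean in all 4 StwlOE libraries. How many of all tested genes did so was not counted. For hdm the deviations were -0.89, -0.62, -0.53 and -0.45. The abundance of stwl was 45.5, 55.5, 62.6 and 67.8 TPM in the same libraries. StwlOE 1 thus had the least stwl and the lowest level of most of these genes, and StwlOE 4 the most stwl and the level closest to Control. The summed germline markers were at 1258, 1492, 1710 and 1821 TPM in StwlOE replicates 1 to 4. In the same libraries the summed chorion genes were at 7031, 1518, 4559 and 5820 TPM. StwlOE 1 thus also had the lowest germline sum and the highest chorion sum of all 8 libraries. The level of stwl and the tissue content of these libraries cannot be told apart here, and the part of neither was tested. Without StwlOE 1, hdm and mei-W68 still passed (log2 fold changes of -0.54 and -0.45, adjusted p = 0.00340 and 0.0353 in limma), and the median of the 10 genes was -0.16.

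**Figure D2:**
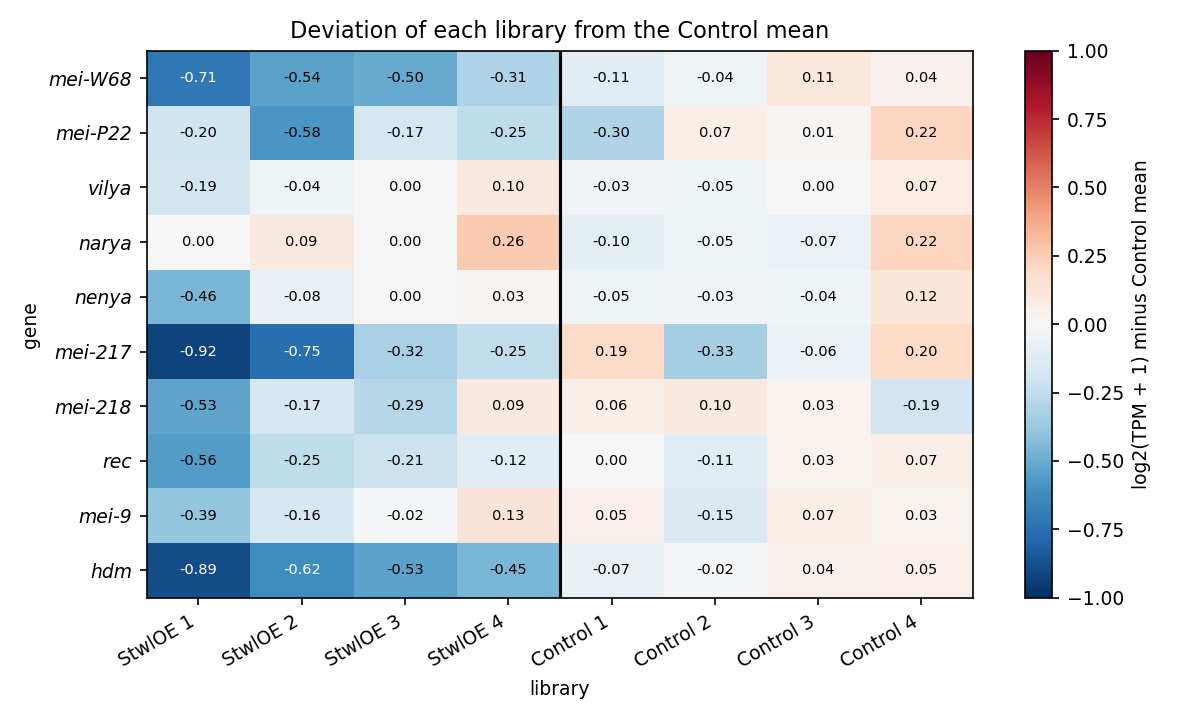
Deviation of log2(TPM + 1) from the Control mean (colour and printed value) for each gene (rows) in each library (columns, StwlOE left of the line, Control right of it). The StwlOE 1 column is the darkest, and the rows of hdm and mei-W68 are below -0.30 in every StwlOE library.

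The median of the 10 genes was close to that of the germline markers. Of the 12 germline markers 11 had a log2 fold change below 0, with a median of -0.24, against -0.25 for the 10 genes and 0.01 for all tested genes. In limma on TPM as deposited, 1 of the 12 was called lower, where 2.18% of all tested genes were. With median-of-ratios scaling 7 were lower (6.58% of all tested genes) and with quantile normalization 5 (8.04%). With library weights 5 were lower (9.04%) and 1 higher (25.8%). The authors' deposited table has 8 lower, against 8.4% of the genes with an adjusted p. The 1 lower on TPM as deposited was bgcn, a differentiation gene that acts with bam, at 30.8 ± 5.85 TPM in StwlOE and 55.0 ± 3.00 TPM in Control (SD, n = 4 each, adjusted p = 0.00429 in limma). In whole ovaries, fewer cells of a type and less RNA per cell cannot be told apart.

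Dividing each library by the geometric mean of the 12 germline markers set the genes against these markers. The called-lower bgcn is 1 of the 12, so it lowers the StwlOE scale and moves all genes up. A scale without bgcn was not tried, and small higher calls can depend on it. This scaling moved the median log2 fold change of all tested genes to 0.26, and called 1.54% of them lower and 55.9% higher. Under it hdm, mei-W68 and mei-217 were lower, with log2 fold changes of -0.39, -0.32 and -0.32 (adjusted p = 0.00174, 0.0150 and 0.0329 in limma). Relative to the median of all genes they were at -0.65, -0.58 and -0.59. Subtracting that median takes the shared shift of the scaling out again, so values relative to it stay near those without scaling and add no separate result. The values of hdm then lay between 7.56 and 8.26 scaled TPM in StwlOE and between 9.56 and 10.98 scaled TPM in Control, and those of mei-W68 between 2.70 and 3.05 in StwlOE and between 3.42 and 4.21 in Control. The SD of hdm among StwlOE libraries was 0.320 on that scale and 1.02 TPM without it. Among Control libraries it was 0.649 on that scale and 0.505 TPM without it. The gene rec, at -0.04, and mei-218, at 0.02, did not pass. The genes mei-9, vilya and narya were called higher, at 0.14, 0.22 and 0.33 (adjusted p = 0.0294, 0.0250 and 0.0262), but relative to the median of all genes they were at -0.12, -0.04 and 0.07.

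**Figure D3:**
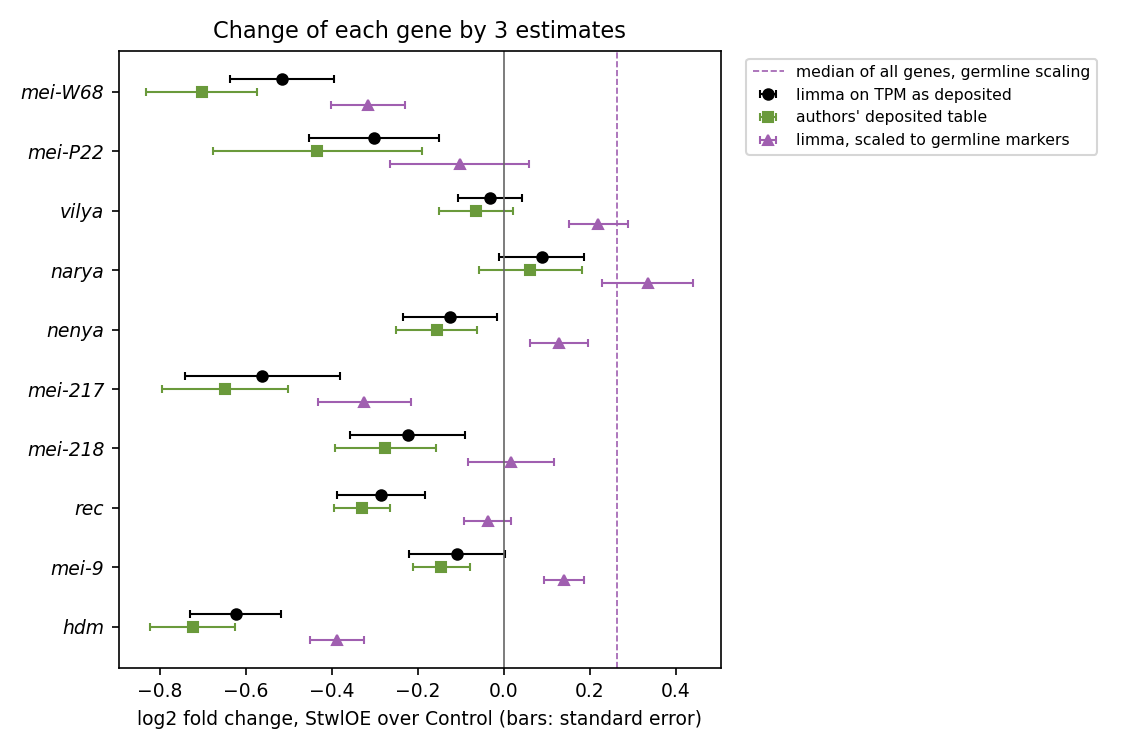
Log2 fold change of StwlOE over Control (horizontal axis, bars are standard errors) for each gene from limma on TPM as deposited (black circles), the authors' deposited table (green squares) and limma after scaling to germline markers (purple triangles), with the median of all genes under that scaling as a dashed line. The 3 estimates are below 0 for mei-W68, mei-P22, mei-217, rec and hdm, and the purple values of mei-W68, mei-217 and hdm are farthest left of the dashed line.

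The counts of other genes of meiotic recombination that passed depended on the scaling. In limma on TPM as deposited, where 2.18% of all tested genes were called lower, 0 or 1 gene passed in each of 4 lists. Of 11 synaptonemal complex and meiotic cohesion genes, 1 fell and 0 rose, with a median log2 fold change of -0.16. The gene that fell was solo, needed for sister chromatid cohesion in meiosis, at 11.1 ± 1.08 TPM in StwlOE and 16.0 ± 0.856 TPM in Control (SD, n = 4 each), a log2 fold change of -0.50 that limma gave an adjusted p of 0.00838. Of 19 genes of break repair and crossover partners 0 passed in either direction, with a median of -0.07. The 2 most abundant, RpA-70 and RPA3, subunits of the single-strand binding protein RPA, had log2 fold changes of 0.03 and -0.10. Of 8 checkpoint genes 0 passed, with a median of -0.02, and lok, the checkpoint kinase that responds to DNA breaks, was at 80.9 ± 14.7 TPM in StwlOE and 120 ± 24.2 TPM in Control (SD, n = 4 each), a log2 fold change of -0.55 with 0.0672 as the adjusted p in limma. The AAA ATPase gene pch2 had a log2 fold change of -0.02. Of 7 MCM genes of DNA replication 0 passed and all 7 were below 0, with a median of -0.10, and Mcm7 and Mcm6 had values of -0.16 and -0.07. With median-of-ratios scaling, which called 6.58% of all tested genes lower, 4 of the 11 synaptonemal and cohesion genes, 2 of the 19 repair and crossover partners, 2 of the 8 checkpoint genes and 4 of the 7 MCM genes were lower, and 1 synaptonemal or cohesion gene was higher. The authors' deposited table has 6, 4, 2 and 4 genes of these lists lower, against 8.4% of the genes with an adjusted p. Scaled to germline markers, 55.9% of all tested genes were called higher and 1.54% lower. Under that scaling 10 of the 19 repair and crossover partners were higher and 0 lower, and 6 of the 8 checkpoint genes were higher and 1 lower. Of the 11 synaptonemal and cohesion genes 3 were higher and 1 lower, and of the 7 MCM genes 2 were higher and 0 lower. The call of solo held under all 11 other settings, the authors' deposited comparison included, and with each of the 8 libraries left out.

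Genes of later germline stages did not share 1 direction: bcd, which patterns the anterior embryo, fell, with a log2 fold change of -0.62 (adjusted p = 0.0445 in limma), and grk, the EGF-type ligand of the oocyte, rose, with 0.38 (adjusted p = 0.0156 in limma). The call of bcd was kept in 1 of the 8 fits without 1 library, the one without StwlOE 4, and was lost with the replicate block, with no filter and with a minimum mean of 5 TPM (adjusted p-values up to 0.130, log2 fold changes of -0.74 to -0.40 over all settings tried). The call of grk was lost without StwlOE 2, StwlOE 3 or Control 3 and with quantile normalization. Of the 8 listed genes 1 was called lower and 1 higher, against 2.18% and 6.2% of all tested genes, with a median of 0.08. The largest rises, pgc at 1.20 and osk at 0.53, did not pass, and in StwlOE their SD was above their mean. Without StwlOE 1, 7 of the 8 were tested.

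The medians of the somatic marker lists went the other way. Of 12 muscle sheath genes 10 rose and 0 fell, of 8 hemocyte genes 6 rose, and of 9 chorion genes 8 rose. Of 11 tested follicle and escort cell genes 1 rose, the homeobox gene mirr, and 2 had a log2 fold change below 0. Of all tested genes, 6.2% were called higher. The medians of these lists were 0.67, 0.89, 3.17 and 0.25. The muscle count stayed between 9 and 11 under every setting tried and the hemocyte count between 4 and 7. The chorion count dropped to 2 without StwlOE 3, StwlOE 4, Control 1, Control 2 or Control 4, to 5 without StwlOE 1, to 3 with no filter and to 4 with no variance trend, while the median stayed at 2.47 or above. The follicle and escort count was 0 with no filter and without StwlOE 2, StwlOE 3, StwlOE 4, Control 1, Control 2 or Control 3, and 5 without StwlOE 1. Its highest values were 7 with library weights, where 25.8% of all tested genes were called higher, and 8 with germline marker scaling, where 55.9% were. The hemocyte count was 4 without StwlOE 2, StwlOE 3, StwlOE 4, Control 3 or Control 4.

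**Figure D4:**
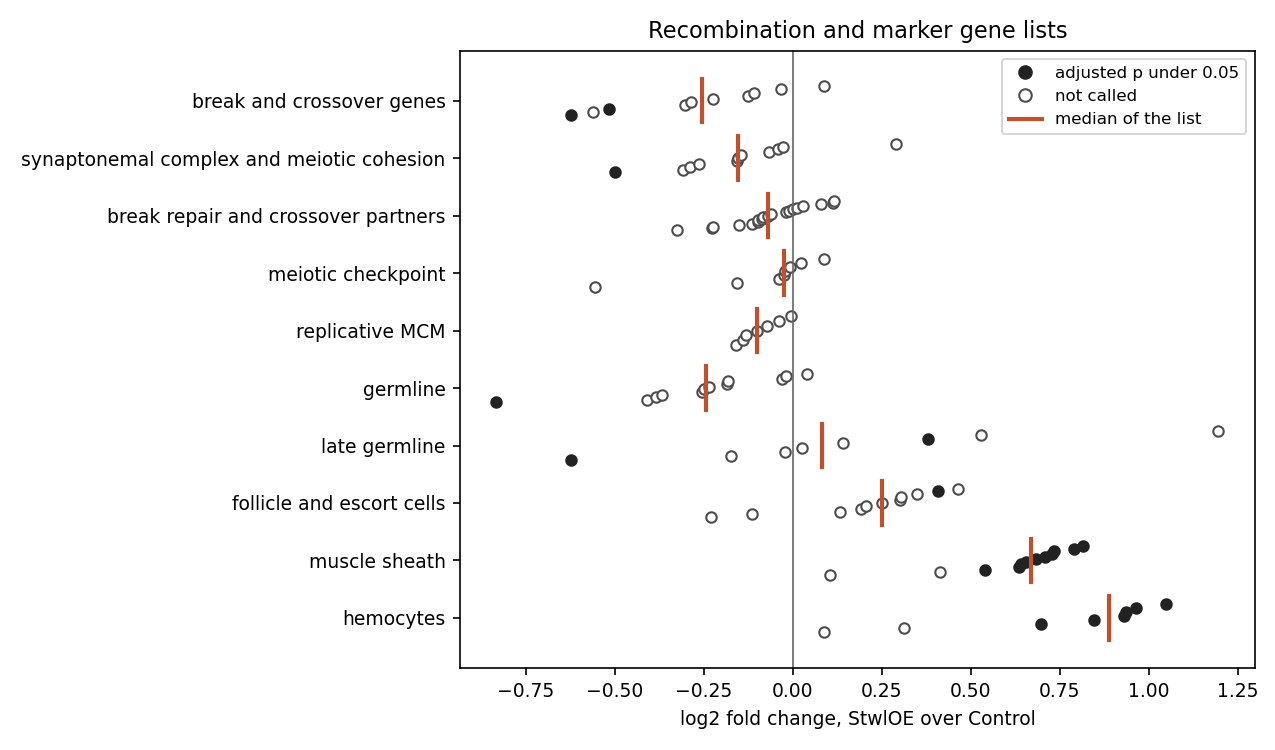
Log2 fold change of StwlOE over Control (horizontal axis) for each tested gene of the recombination and marker lists (rows), filled where the adjusted p in limma was under 0.05, with the median of each list as an orange bar. Medians of the break and crossover genes (-0.25) and of the germline markers (-0.24) lie left of 0, and those of muscle sheath (0.67) and hemocyte genes (0.89) right of it. The chorion list (median 3.17) is left out for scale.

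No tested gene next to the 10 passed. Of the protein-coding genes that neighbour or overlap them, outside the set itself, the lowest adjusted p in limma was 0.0835, for NO66 beside mei-9, with a log2 fold change of -0.22. The gene upstream of mei-217 and mei-218, RpS5a, was at 2968 ± 63.8 TPM in StwlOE and 3077 ± 121 TPM in Control (SD, n = 4 each), and that beside vilya, dwg, at 29.6 ± 4.71 TPM in StwlOE and 27.8 ± 3.20 TPM in Control (SD, n = 4 each).

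The authors' deposited table marks 3 of the 10 genes as Down, hdm, mei-W68 and mei-217, against 1.35% of its 11397 genes. At an adjusted p of 0.05 alone, 4 of the 10 were lower in that table, these 3 and rec, against 8.4% of the genes with an adjusted p. The same table says that a Stwl peak lies within 1 kb of 6 of the 10 gene bodies, against 73.7% of its genes. Of the 2 genes that fell in limma, mei-W68 has such a peak and hdm has none, and narya, vilya and rec have none either. The origin of the peaks is not given in the table. It further marks hdm and vilya as upregulated in a study it names, by Zinshteyn et al. Of its genes, 3.46% carry the mark of that study alone and 9.19% that of both studies it names. With the genes marked for the other study alone, 21.2% carry a mark of this kind. The condition of the study by Zinshteyn et al. is not given in the table.

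By Pearson correlation of log2(TPM + 1) over the 8 libraries, the tested genes outside the set most like hdm were thoc6 (r = 0.997), CG2260 (0.987) and CG6830 (0.987). Those most like mei-W68 were thoc6 (0.986), CG6830 (0.983) and hog (0.977). These are descriptions over 8 libraries that share 2 groups, and 236 tested genes reached an r of 0.9 with hdm. The gene thoc6, a THO complex subunit gene of mRNA export, was at 42.6 ± 2.47 TPM in StwlOE and 52.5 ± 1.57 TPM in Control (SD, n = 4 each, log2 fold change -0.30).

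**Figure D5:**
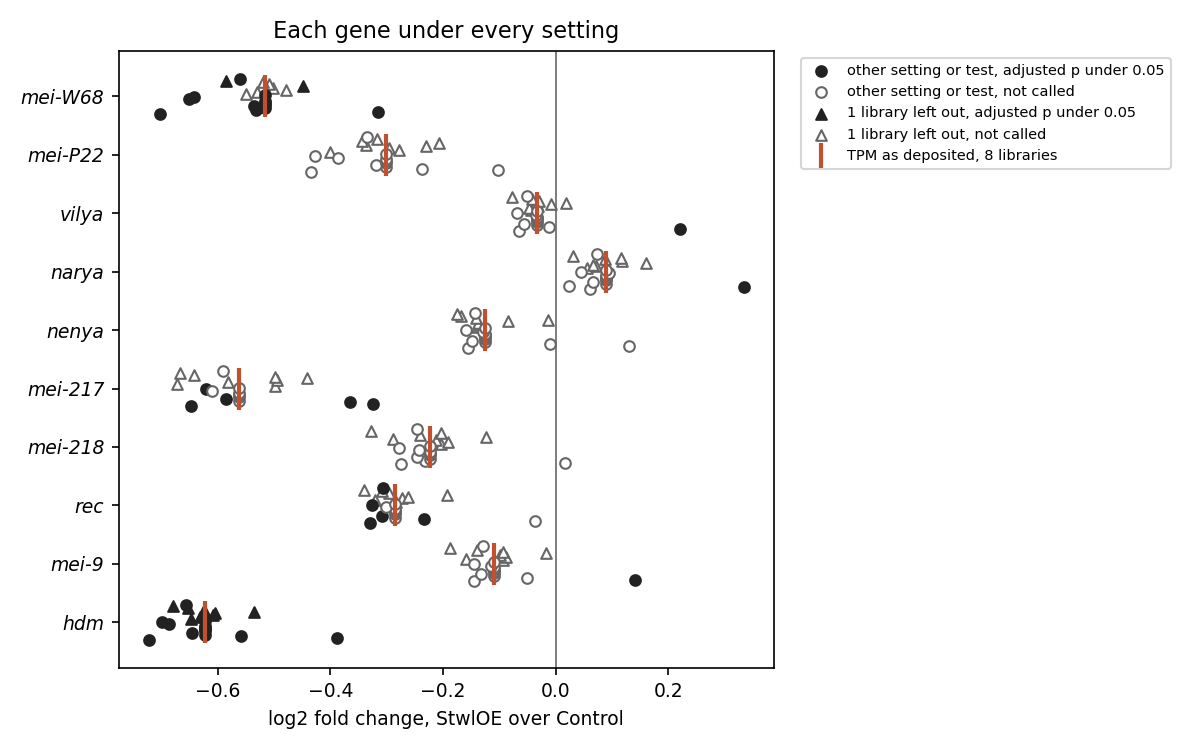
Log2 fold change of StwlOE over Control (horizontal axis) of each gene under each processing setting, with the value for TPM as deposited in orange, settings with 1 library left out as triangles and other settings or tests as circles, filled where the adjusted p was under 0.05. The markers of hdm are all filled and lie between -0.72 and -0.39, those of mei-P22 are all open, and those of narya all lie above 0.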

How the data were processed

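PolyA RNA of 8 ovary samples, 4 StwlOE and 4 Control, was sequenced, with Tru-Seq mRNA libraries per the labels' protocols. The authors deposited TPM values per gene; their headers say log2, but each column sums to 1000000, so they were used as linear TPM. The authors' own comparison was also deposited, with a log2 fold change and its standard error, p-values (raw and adjusted) and a mean normalized count, a score not used in tests. Salmon 1.10.1, DESeq2 1.37.4 and BDGP 6 are named in the submitters' processing notes, with no role given. Depth is unknown from TPM.

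Genes averaging 1 TPM or more were fitted as log2(TPM + 1) with limma 3.58.1 (R 4.3.3), group as the only term, an empirical Bayes trend and Benjamini-Hochberg adjustment over all 8898. Single differences used 2-sided exact permutation tests (scipy 1.17.1). Positions come from Ensembl release 115 (BDGP6, dm6 coordinates). Figures used matplotlib 3.10.9.

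The 10 genes and the other lists were chosen with earlier results of these data known. Named genes were the 10, stwl, called list genes or else the 2 most abundant of a list, neighbours, and the 3 genes most like hdm and mei-W68. Alternatives changed the pseudocount, filter, scaling, weights, variance prior, replicate block, test and libraries used.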

Additional observations from a re-analysis of the deposited data

Results flagged for a closer look

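In 3 of the 20 sets of 4 libraries (10 genes in each group), the highest or lowest library was separated from the next by a gap larger, as a share of the group's range, than the 95% critical value of Dixon's test; chance flags about 1 in 20 groups. All 3 were in Control libraries. Control 4 was high for nenya at 35.8 TPM (0.917 of the range) and for narya at 16.3 TPM (0.862 of the range). Control 2 was low for mei-9 at 18.6 TPM (0.837 of the range). No StwlOE value of the 10 genes was separated in this way, and neither hdm nor mei-W68 had such a library.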

How the results depend on the processing

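Of the 10 genes, hdm passed under all 12 other settings and all 8 fits without 1 library, and mei-W68 under all 11 other settings that tested it and 2 of 8 fits without 1 library. The 2 lower calls became 4 with quantile normalization, median-of-ratios scaling, library weights and the authors' deposited comparison, and 1 with a minimum mean of 5 TPM, where mei-W68 and mei-P22 were not tested. Without 1 library they were 1 to 2. Genes of the 10 without overlap were then 3 to 4, where 5.93% to 9.84% of all tested genes were lower and 10.9% to 20.2% higher without overlap. Each was lower in StwlOE except narya, which was higher without overlap when Control 4 was left out. Germline marker scaling called 3 genes higher. Under it log2 fold changes turned for vilya (0.22), nenya (0.13), mei-218 (0.016) and mei-9 (0.14), narya passed at 0.33 and mei-217 at -0.32. Calls gained for mei-217 were at -0.59 (median-of-ratios), -0.62 (quantile), -0.36 (weights) and -0.65 (authors' deposited table), and for rec at -0.31, -0.33, -0.23 and -0.33, with -0.31 without the 20 most abundant genes. The cause was not tested. Without 1 library mei-W68 ranged from -0.58 to -0.45, vilya from -0.077 to 0.018, and the change of rec minus mei-218 from -0.13 to 0.026. Over all genes, higher calls were 4969 with germline marker scaling, 2293 with library weights and 1113 in the authors' deposited table, and 336 to 988 without 1 library. Lower calls were 585, 715, 379, 804 and 893 with median-of-ratios scaling, quantile normalization, without the 20 most abundant genes, with weights and in the authors' deposited table, and 99 to 248 without 1 library. Same-numbered libraries deviated with correlations of 0.128, -0.0174, -0.134 and 0.144, against -0.246 to 0.271 for unlike numbers. With so few libraries these values cannot decide whether the numbers pair them, and the labels state no pairing. With a replicate block, hdm and mei-W68 passed (adjusted p = 0.0116 and 0.0461), with 576 higher and 202 lower genes. Depth is unknown, and the standard errors in limma were largest for mei-217 (0.180) and mei-P22 (0.151).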
